A study of Mus musculus with 2 samples.

Results

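DNA replication genes were measured in 1 library of adherent GL261 cells and 1 library of neurosphere GL261 cells. GL261 is a mouse glioma cell line. The 40 genes were taken by name from the 32285 genes of the count tables, and all 40 were found. Added together, they gave 1979 CPM, UMIs per 1000000 UMIs, in the adherent library and 2732 CPM in the neurosphere library. A UMI (unique molecular identifier) marks a single captured transcript. Mcm2, a subunit of the replicative helicase, Fen1, the nuclease that trims Okazaki flaps, Slbp, which binds histone mRNA, and Ccne2, a cyclin of S phase entry, were each at least 2-fold higher in neurosphere cells under every scaling and cell filter tried. Depending on the setting, 4 to 11 of the 40 genes passed this fold, where 15.4% to 29.5% of all measured genes did. Pola1, Pold1 and Pole, the catalytic subunits of the replicative polymerases, were at lower CPM in neurosphere cells, as were 35.8% of all measured genes. Pola1 was almost level (-0.0060 on the log2 scale) when mitochondrial and ribosomal genes were in the total. When cells were grouped by mitosis transcripts, each of these genes was level or higher in neurosphere cells in at least 1 group. The cultures also differed in how replication transcripts were spread over cells, with more neurosphere cells that held very few or very many of the 40 genes.

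Replication starts when Cdc6 and Cdt1 load the ring of 6 MCM proteins onto origins during G1 phase. In S phase the ring is turned into an active helicase by Cdc45, the GINS complex and Mcm10. Polymerase alpha and its primase then lay down primers, the RFC complex loads the PCNA clamp, polymerases delta and epsilon extend, and Fen1 and Lig1 finish the Okazaki fragments. Ribonucleotide reductase and Tyms supply the nucleotides, Slbp and the CAF-1 subunits serve histone supply and deposition, and E2F factors with cyclin E switch on many of these genes before S phase. Not every member works at the fork itself. Brca1 and Ung act in DNA repair, and E2f1, Ccne1 and Ccne2 act at entry into S phase.

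Adherent cells were grown in DMEM with 10% serum and antibiotics and collected near confluence. Neurosphere cells received in addition Epidermal and Fibroblast Growth Factor, each at 20 ng/ml, and B-27 at 1:50, and were collected after 12 days. Trypsin was used to detach adherent cells and, per the labels, on neurospheres, which were also dispersed by repeated pipetting, a step not described for adherent cells. Both were frozen with DMSO and sequenced with the 10x Genomics 3′ protocol, and both come from the same C57BL/6 line, labelled as astrocytoma. With 1 library per condition no difference between the cultures has a replicate check, no test was run, and culture, cell collection and library cannot be told apart. The intervals given are exact 95% intervals and cover counting error only.

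After the cell filter, 5051 adherent and 4276 neurosphere cells were kept, with 46290996 and 64943938 UMIs on the genes left. The median kept cell held 8260 UMIs in the adherent library and 13198.5 UMIs in the neurosphere library. Mitochondrial transcripts took a median of 2.02% of UMIs in adherent and 3.97% in neurosphere cells, and 12 cell barcodes occurred in both libraries. Of 8 astrocyte markers, Aqp4 had 0 UMIs in both libraries and Gfap had 30 UMIs in adherent and 27 in neurosphere cells, while S100b and Slc1a3 were present. The summed level was 567 CPM (adherent) and 366 CPM (neurosphere), but of the 6 measured 3 were higher and 3 lower in neurosphere cells. Of 8 immune cell markers, 1 reached 50 UMIs over both libraries, Tyrobp had 0 UMIs in both, and the sum was 2.87 CPM (adherent) and 2.20 CPM (neurosphere). The 12 dissociation stress genes summed to 1203 CPM (adherent) and 1925 CPM (neurosphere), but of the 10 measured 6 were higher and 4 lower in neurosphere cells, with Hspa1b at 0 in both and Hspa1a at 0 in neurosphere cells. The part of depth, mitochondrial share and stress genes in the results below was not tested.

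The promoters of the replication genes are shown first because E2F sites are a known common feature of this gene class. The RefSeq promoter table (GRCm38.p6, 250 bases before to 50 bases after each start) held 32 of the 40 genes, and it lacked Mcm4, Rfc2, Gins1, Gins2, Prim2, Dscc1, Pole and Ccne2. An E2F motif was searched as TTTCCCGC, TTTCGCGC, TTTGCCGC or TTTGGCGC on both strands, where overlapping matches were allowed. It occurred in 12 of the 32 genes (37.5%), against 704 of 27025 genes in the whole table (2.60%). Among 43 other replication genes with a promoter 13 held it, 30.2%, and among 20 mitosis genes 1 held it, 5.00%. The first match of each of the 12 genes, in the direction of transcription, is printed below with its flanks. The motif is in capitals.
Mcm3 (chr1:20820275-20820304, minus strand): aaacttccgtgGCGGGAAAacttgggaagt
Mcm5 (chr8:75109345-75109374, plus strand): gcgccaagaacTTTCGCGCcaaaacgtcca
Mcm6 (chr1:128359797-128359826, minus strand): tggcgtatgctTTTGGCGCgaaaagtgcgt
Mcm7 (chr5:138172030-138172059, minus strand): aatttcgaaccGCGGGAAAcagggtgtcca
Cdc6 (chr11:98908002-98908031, plus strand): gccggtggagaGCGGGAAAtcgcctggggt
Cdt1 (chr8:122568036-122568064, plus strand): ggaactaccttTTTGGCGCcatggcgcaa
Gins3 (chr8:95633507-95633536, plus strand): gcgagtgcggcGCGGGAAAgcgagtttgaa
Rfc3 (chr5:151651200-151651229, minus strand): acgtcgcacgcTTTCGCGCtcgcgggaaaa
Pola1 (chrX:93632275-93632304, minus strand): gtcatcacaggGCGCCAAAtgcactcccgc
Pold1 (chr7:44548766-44548787, minus strand): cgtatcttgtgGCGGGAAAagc
Lig1 (chr7:13278841-13278870, plus strand): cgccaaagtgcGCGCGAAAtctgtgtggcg
Uhrf1 (chr17:56304117-56304146, plus strand): cccgagtcgggTTTCGCGCgcccaggcgtc

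These 12 genes included 4 of the 5 genes of the MCM ring in the table, both loading factors, and Pola1 and Pold1. Among the 32 genes, those with and without the motif had overlapping fold changes between cultures. The median log2 fold change (neurosphere over adherent CPM) was 0.62 for the 12 genes with a match and 0.52 for the 20 without, with ranges of -0.37 to 1.13 and -0.28 to 1.93. The 8 genes without a promoter in the table could not be placed, and they ran from -0.43 (Gins1) to 1.82 (Ccne2). Mcm2 and Slbp, which differed most between the cultures among the genes of their roles, had no match in this window. Their 250 bases before the start are printed with the motif CCAAT, or ATTGG on the other strand, in capitals. CCAAT occurred in 19 of the 32 genes (59.4%) and in 41.1% of all genes in the table.
Mcm2 (chr6:88898781-88899030, minus strand): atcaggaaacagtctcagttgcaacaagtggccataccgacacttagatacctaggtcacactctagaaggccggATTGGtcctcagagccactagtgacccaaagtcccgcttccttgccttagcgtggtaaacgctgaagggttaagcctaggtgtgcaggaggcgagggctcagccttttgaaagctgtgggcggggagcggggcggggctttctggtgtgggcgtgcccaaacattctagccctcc
Slbp (chr5:33652575-33652824, minus strand): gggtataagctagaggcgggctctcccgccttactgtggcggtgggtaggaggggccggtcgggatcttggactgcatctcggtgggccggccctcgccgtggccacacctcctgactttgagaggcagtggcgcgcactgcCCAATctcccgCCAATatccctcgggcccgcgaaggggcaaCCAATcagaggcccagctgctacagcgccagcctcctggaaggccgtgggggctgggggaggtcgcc

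Across the 40 genes, 32 were higher and 8 were lower in neurosphere cells, by any size. A change of scaling turned the sign of up to 6 of them (Gins2, Pcna, Rfc3, Prim1, Tyms and Chaf1a under median of ratios scaling). Of the 14654 genes measured, those with 50 or more UMIs over the 2 libraries, 64.2% were higher and 35.8% were lower in neurosphere cells. At least 2-fold higher were 8 of the 40 genes, Mcm2, Cdc6, Dscc1, Prim2, Fen1, Rrm2, Slbp and Ccne2, where 21.7% of all measured genes passed the same fold. With cells thinned to 5000 UMIs, 4 of the 40 passed it, where 22.6% of all measured genes did. None of the 40 was at least 2-fold lower, where 11.7% of all measured genes were. At least 1.5-fold higher were 21 of the 40 genes, where 38.2% of all measured genes passed that fold, and at least 1.5-fold lower were 0 of the 40, against 18.3% of all measured genes.

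The median log2 fold change of the 40 genes was 0.61, against 0.32 for all measured genes, whose quartiles ran from -0.32 to 0.90. The distance between these medians, 0.29, varied between settings. It was 0.17 when every cell had equal weight and 0.06 when every cell was thinned to 5000 UMIs. Thinning also left out 587 adherent and 80 neurosphere cells that were too shallow, and 12951 genes were then measured. The fold changes of the 40 genes ran from -0.43 for Gins1 to 1.93 for Mcm2. The order of the genes was largely kept between cultures, with a Spearman correlation of 0.85 between the CPM values of the 40 genes, which share depth and capture within a library. Fold change and gene span had a Spearman correlation of -0.31 over the 40 genes.

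**Figure D1:**
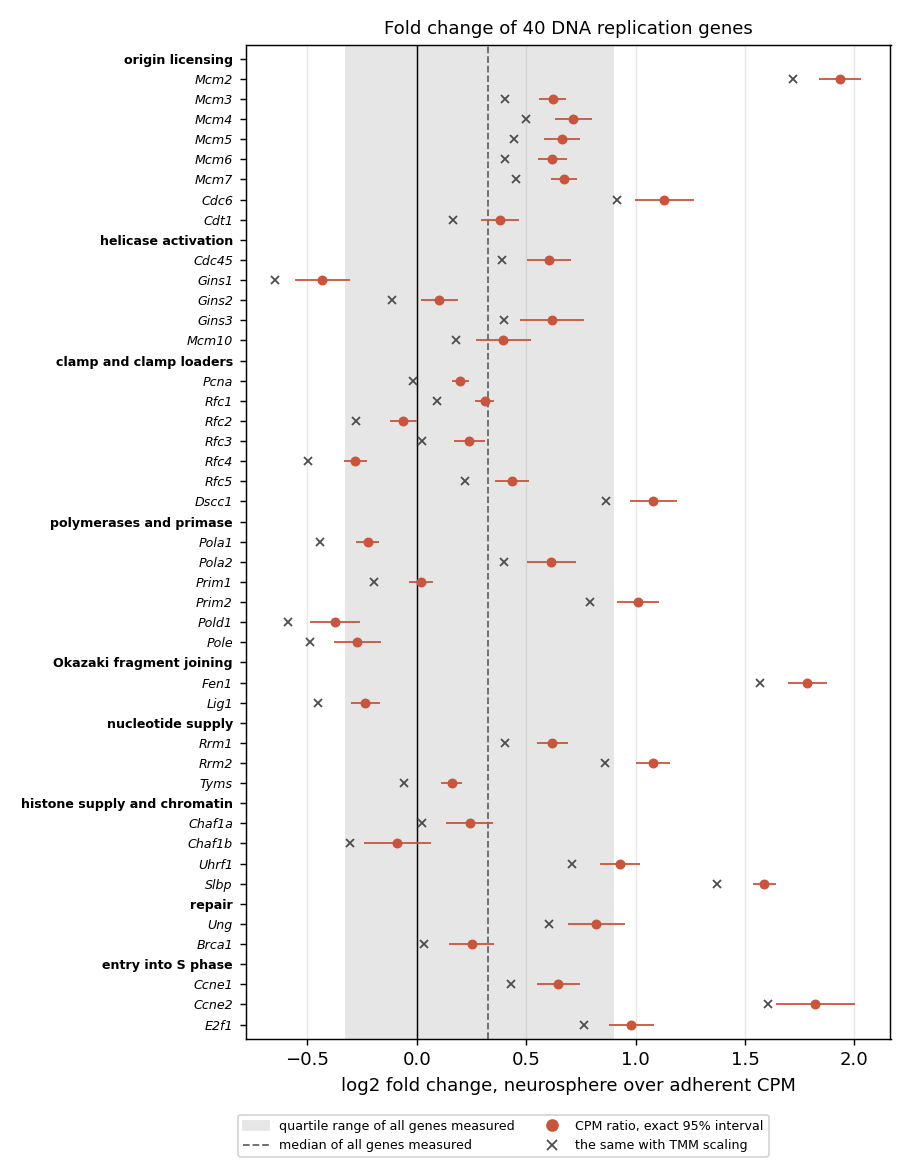
Log2 fold change of each replication gene (horizontal axis, neurosphere over adherent CPM), grouped by role. Circles are CPM ratios with exact 95% intervals of counting error, crosses the same ratios under TMM scaling, which turns the sign of Gins2, Pcna, Prim1 and Tyms. The grey band spans the quartiles of all measured genes (-0.32 to 0.90) and the dashed line their median (0.32). Right of the band lie 10 genes, with Mcm2, Ccne2, Fen1 and Slbp the farthest, and Gins1 and Pold1 lie left of it.

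All 8 genes of origin licensing were higher in neurosphere cells, where 64.2% of all measured genes were, with a median log2 fold change of 0.67 against 0.32 for all, and each kept a positive value in every setting tried. Mcm2 (ENSMUSG00000002870, chromosome 6 from 88883474 to 88898780, minus strand, GRCm38) had 1044 UMIs, or 22.6 CPM, in adherent cells and 5599 UMIs, or 86.2 CPM, in neurosphere cells. This is a log2 fold change of 1.93 (1.84 to 2.03), and it stayed between 1.69 and 2.15 over the settings. At least 1 UMI of Mcm2 was found in 17.7% (adherent) and 57.9% (neurosphere) of cells. With every cell thinned to 5000 UMIs, the shares were 10.8% and 32.4%. Free RNA can put a UMI into a cell that does not express the gene. How often it did so could not be measured, as both cultures hold a single line and no cells known to be without these genes.

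The other 5 subunits of the MCM ring moved together and less than Mcm2. Mcm3 was at 66.0 CPM (adherent) and 102 CPM (neurosphere), Mcm6 at 54.8 and 84.2 CPM, and Mcm7 at 70.5 and 112 CPM. Mcm4 was at 33.7 and 55.3 CPM, and Mcm5 at 37.4 and 59.2 CPM. Their log2 fold changes lay between 0.62 and 0.72. The ring holds 1 copy of each subunit, and the make-up of its transcripts differed between the cultures. Mcm2 gave 7.91% (7.46% to 8.39%) of the UMIs of the 6 subunits in the adherent library, against 17.3% (16.9% to 17.7%) in the neurosphere library. Each of the other 5 subunits took a smaller share in neurosphere cells than in adherent cells. Shares within a complex do not depend on the scaling between libraries, but they do depend on how well each transcript is captured, so they are compared only between cultures. The complexes were chosen for this comparison after the values of single genes were seen.

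Of the loading factors, Cdc6 had 611 adherent and 1878 neurosphere UMIs, 13.2 and 28.9 CPM. Its log2 fold change was 1.13 (1.00 to 1.27). Shares of cells with a Cdc6 UMI were 10.4% and 26.1%, and 6.12% and 10.6% after thinning. Cdt1, the partner of Cdc6 in loading the ring, differed less, at 35.8 CPM (adherent) and 46.6 CPM (neurosphere).

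The genes of helicase activation did not move as a unit. Cdc45 was at 25.8 CPM (adherent) and 39.2 CPM (neurosphere), and Mcm10, which helps to fire the helicase, at 17.4 and 22.9 CPM. Within the GINS complex, Gins3 was at 12.0 and 18.5 CPM, and Gins2 at 40.1 and 43.0 CPM, where the sign of Gins2 turned under TMM and median of ratios scaling. Gins1 (ENSMUSG00000027454, chromosome 2 from 150905400 to 150931280, plus strand) had the lowest log2 fold change of the 40 genes. It had 1030 adherent and 1071 neurosphere UMIs, or 22.3 and 16.5 CPM, with a log2 fold change of -0.43 (-0.56 to -0.31), between -0.69 and -0.21 over the settings. A Gins1 UMI was found in 17.3% (adherent) and 19.6% (neurosphere) of cells, and in 10.4% and 6.58% after thinning. Gins1 thus took 17.1% of GINS transcripts in adherent and 11.9% in neurosphere cells, while Gins3 took 9.27% and 13.3%. Gins4, no member of the 40, was counted in the complex.

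Among the clamp and its loaders, differences were small, with 1 exception. Pcna, the sliding clamp, had 8732 adherent and 14057 neurosphere UMIs, or 189 and 216 CPM. Its log2 fold change of 0.20 (0.16 to 0.24) turned to a value just below 0 under TMM and median of ratios scaling. Pcna UMIs were found in 71.4% (adherent) and 74.9% (neurosphere) of cells, but in 57.0% and 53.5% after thinning, so that no order of the cultures was read from its share. Rfc1, the large subunit of the clamp loader, had 6607 and 11492 UMIs, or 143 and 177 CPM, with a log2 fold change of 0.31 (0.27 to 0.35). Its shares of cells were 64.9% and 79.2%, and 48.8% and 52.9% after thinning.

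The small loader subunits went in different directions. Rfc4 had 5359 adherent and 6185 neurosphere UMIs, or 116 and 95.2 CPM, with a log2 fold change of -0.28 (-0.33 to -0.23). After thinning, 40.7% (adherent) and 30.9% (neurosphere) of cells held an Rfc4 UMI, against 55.2% and 55.9% before. Rfc2 was at 82.5 and 79.0 CPM, and its sign turned when the total included mitochondrial and ribosomal genes. Rfc3, whose sign turned under median of ratios scaling, and Rfc5 had log2 fold changes of 0.24 and 0.44. Rfc4 took 26.3% of RFC transcripts in adherent and 20.0% in neurosphere cells, and Rfc1 took 32.4% and 37.2%. Dscc1, which belongs to an alternative clamp loader that acts in sister chromatid cohesion, was the exception. It was at 20.2 CPM (adherent) and 42.7 CPM (neurosphere), with a log2 fold change of 1.08 (0.97 to 1.19).

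**Figure D2:**
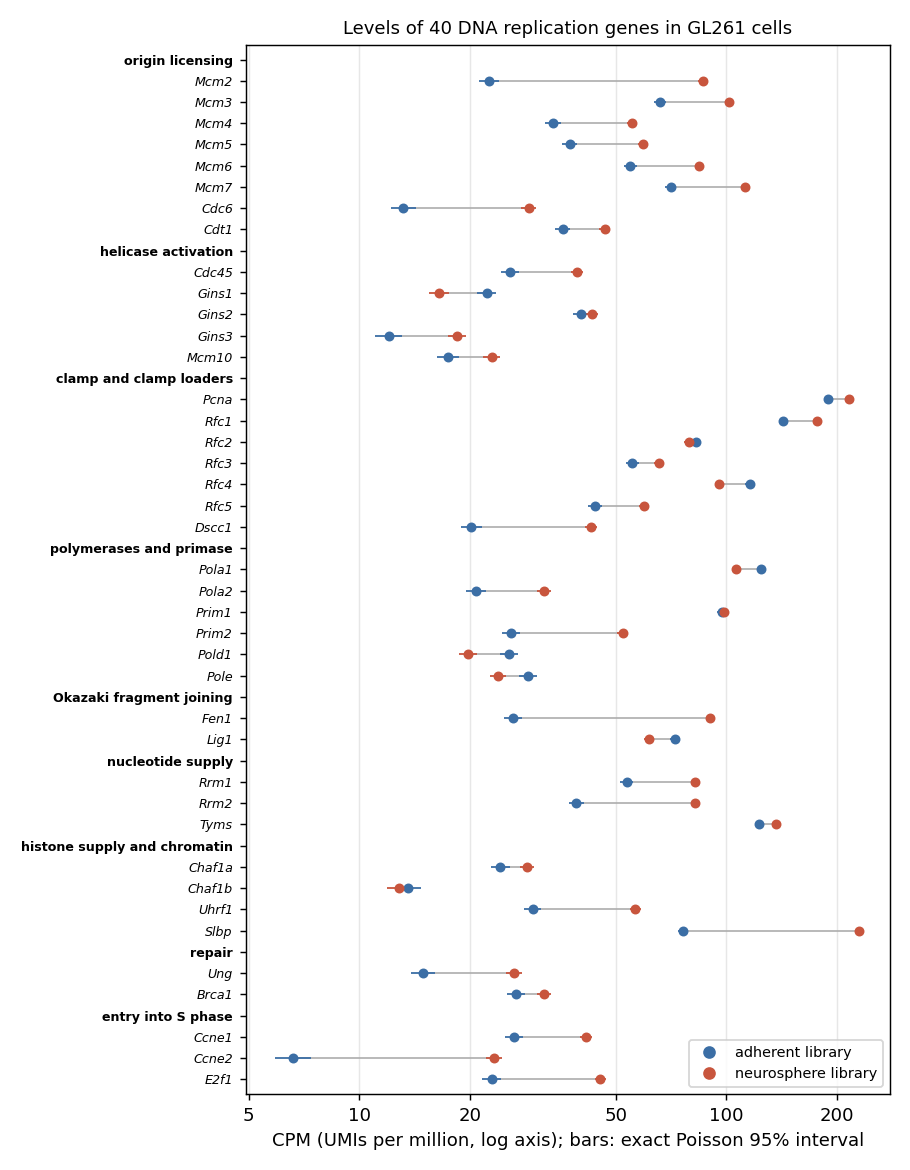
Level of each replication gene in the adherent and the neurosphere library (horizontal axis, CPM on a log scale, 1 value per library), grouped by role. Bars are exact Poisson 95% intervals of counting error. The widest gaps are those of Mcm2 (22.6 and 86.2 CPM), Ccne2 (6.61 and 23.3 CPM) and Fen1 (26.2 and 90.3 CPM), and the points of Prim1 almost coincide (97.4 and 98.7 CPM).

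The polymerases and primase had the lowest median log2 fold change of the roles, at -0.10, which turned positive when the total included mitochondrial and ribosomal genes. In neurosphere cells, 3 of the 6 genes were lower, where 35.8% of all measured genes were, and these were the catalytic subunits of the polymerases. This holds for library sums, and the direction of each of the 3 differed between groups of cells by mitosis UMIs, as given below. Pola1, the catalytic subunit of polymerase alpha, had 5750 adherent and 6901 neurosphere UMIs, or 124 and 106 CPM, with a log2 fold change of -0.23 (-0.28 to -0.17). Pold1, the catalytic subunit of polymerase delta, had 1186 and 1284 UMIs, or 25.6 and 19.8 CPM, with a log2 fold change of -0.37 (-0.49 to -0.26). Pole, the catalytic subunit of polymerase epsilon, had 1335 and 1551 UMIs, or 28.8 and 23.9 CPM, with a log2 fold change of -0.27 (-0.38 to -0.17). Over the settings, Pola1 lay between -0.51 and -0.0060, Pold1 between -0.62 and -0.13, and Pole between -0.52 and -0.053, where the values nearest 0 came with mitochondrial and ribosomal genes in the total. After thinning, UMIs of Pola1 were in 42.7% (adherent) and 32.9% (neurosphere) of cells, those of Pold1 in 12.0% and 8.22%, and those of Pole in 12.5% and 9.91%. Before thinning, the shares were 58.6% and 56.0% for Pola1, 20.3% and 23.1% for Pold1, and 20.9% and 25.2% for Pole.

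Of the partner subunits of polymerase alpha, Prim2 and Pola2 went the other way. Prim2, the large primase subunit, was at 25.9 CPM (adherent) and 52.2 CPM (neurosphere), with a log2 fold change of 1.01 (0.92 to 1.11). Pola2, the regulatory subunit of polymerase alpha, was at 20.8 and 31.9 CPM. Prim1, the catalytic primase subunit, was at 97.4 and 98.7 CPM, with a log2 fold change of 0.02 (-0.04 to 0.07) whose sign turned under 6 of the settings. Within this complex of 4 subunits, Pola1 took 46.3% of UMIs in adherent and 36.8% in neurosphere cells, while Prim2 took 9.66% and 18.1%. Pola1 and Prim2 span 327389 and 215986 bases, the longest of the 40 genes, and their UMIs and shares could depend on whether reads in introns were counted, which is not given in the sources used here.

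**Figure D3:**
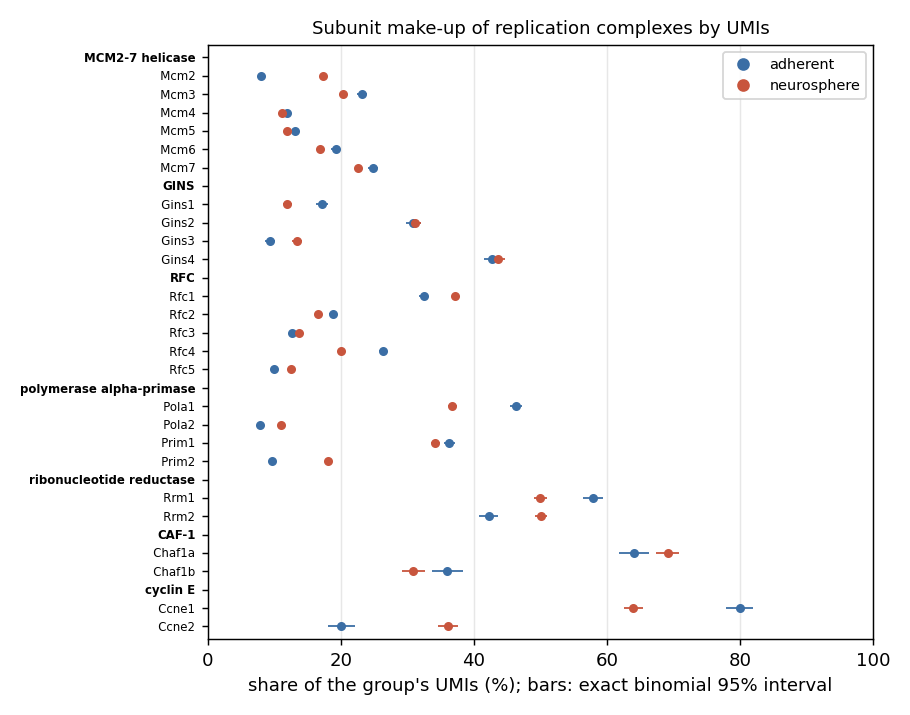
Share of each subunit in the UMIs of its complex or gene pair (horizontal axis, percent) in adherent and neurosphere cells, with exact binomial 95% intervals of counting error. The share of Mcm2 in the MCM ring was 7.91% in adherent and 17.3% in neurosphere cells, that of Prim2 in polymerase alpha-primase 9.66% and 18.1%, and that of Ccne2 in the cyclin E pair 20.0% and 36.1%.

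The genes that finish Okazaki fragments stood far apart. Fen1 (ENSMUSG00000024742, chromosome 19 from 10199132 to 10204169, minus strand) had 1213 adherent and 5863 neurosphere UMIs, or 26.2 and 90.3 CPM. Its log2 fold change was 1.78 (1.70 to 1.87), between 1.54 and 2.00 over the settings. Fen1 UMIs were in 20.3% (adherent) and 56.2% (neurosphere) of cells, and in 11.7% and 30.2% after thinning. Lig1, the ligase that seals the fragments after Fen1 has cut, had 3355 and 3999 UMIs, or 72.5 and 61.6 CPM. Its log2 fold change was -0.24 (-0.30 to -0.17), and its shares of cells were 41.9% and 45.3%, or 28.8% and 21.9% after thinning. The Fen1 locus overlaps Gm10143 and Tmem258 on the opposite strand, and reads of an overlapping gene could be split only by strand.

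In nucleotide supply, Rrm2, the S phase subunit of ribonucleotide reductase, was at 39 CPM (adherent) and 82.4 CPM (neurosphere), with a log2 fold change of 1.08 (1.00 to 1.16). Rrm1, its partner, was at 53.5 and 82.2 CPM. Rrm2 gave 42.2% of the UMIs of the pair in adherent and 50.1% in neurosphere cells. Tyms, which makes thymidylate, had 5675 and 8894 UMIs, or 123 and 137 CPM, with a log2 fold change of 0.16 (0.11 to 0.21) whose sign turned under TMM and median of ratios scaling and with thinned cells. Tyms UMIs were in 58.6% (adherent) and 62.6% (neurosphere) of cells, but in 43.8% and 38.9% after thinning.

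Among genes of histone supply and chromatin, Slbp (ENSMUSG00000004642, chromosome 5 from 33634952 to 33652574, minus strand) had 3530 adherent and 14886 neurosphere UMIs. These are 76.3 and 229 CPM, with a log2 fold change of 1.59 (1.53 to 1.64). Slbp UMIs were in 45.1% (adherent) and 84.1% (neurosphere) of cells, and in 30.8% and 59.8% after thinning. Thinned cells with an Slbp UMI held on average 1.27 UMIs in the adherent and 1.84 UMIs in the neurosphere library. Uhrf1, which keeps DNA methylation through replication, was at 29.7 and 56.5 CPM. Chaf1a and Chaf1b, subunits of the histone chaperone CAF-1, had log2 fold changes of 0.24 and -0.09, and each turned its sign under a different scaling. Chaf1b overlaps the gene Gm49617 on the same strand, so its count is uncertain.

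The repair genes were both higher in neurosphere cells, where 64.2% of all measured genes were. Ung, which removes uracil from DNA, was at 14.9 CPM (adherent) and 26.4 CPM (neurosphere), and Brca1, of homologous recombination, at 26.8 and 31.9 CPM. The log2 fold change of Brca1 fell as low as 0.0019 over the settings. The 3 genes of S phase entry were higher as well, and in every setting. E2f1, a transcription factor of the G1 to S transition, was at 23.0 and 45.4 CPM, and Ccne1 at 26.4 and 41.4 CPM. Ccne2 (chromosome 4 from 11191351 to 11204779, plus strand) had 306 adherent and 1516 neurosphere UMIs, or 6.61 and 23.3 CPM, with a log2 fold change of 1.82 (1.64 to 2.00). Its UMIs were in 5.41% (adherent) and 22.5% (neurosphere) of cells, and in 3.27% and 9.41% after thinning. Ccne2 was the less counted of the pair in both cultures, with 20.0% of cyclin E UMIs in adherent and 36.1% in neurosphere cells.

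Other genes of replication and of S phase control were set beside the 40. Of 50 further replication genes, 36 were higher and 14 lower in neurosphere cells (64.2% and 35.8% of all measured genes). Their median log2 fold change was 0.32, the same as over all genes. Past 2-fold were 2 of the 50 on the higher and 3 on the lower side, where 21.7% and 11.7% of all measured genes were. At least 2-fold higher were Dna2, a nuclease of long flaps, at 9.01 and 24.4 CPM (1.44 on the log2 scale), and Wdhd1, which ties polymerase alpha to the helicase, at 6.98 and 15 CPM. Orc1, Rnaseh2b and Dck came next, at 0.99, 0.99 and 0.95. At least 2-fold lower were Pold4, a small subunit of polymerase delta, at 147 and 24.9 CPM (-2.56), and the RNase H2 subunits Rnaseh2c (-1.26) and Rnaseh2a (-1.22). Pold2 (-0.98) and Chtf8 (-0.84) followed. With Pold1 and Pold3 (-0.39), all 4 genes of polymerase delta subunits were at lower CPM in neurosphere cells. Dna2 lay with Fen1, and Rnaseh2b opposite to its partner subunits.

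Of 27 genes of S phase control, 21 were higher and 6 lower in neurosphere cells (64.2% and 35.8% of all measured genes), with a median of 0.66 against 0.32 for all. The inhibitor Cdkn2c (15.9 and 68.2 CPM, 2.10 on the log2 scale), the repressor E2f8 (7.99 and 33.0 CPM, 2.05), the kinase Cdk2 (17.0 and 53.4 CPM, 1.65), the inhibitor Cdkn1c (0.63 and 1.77 CPM) and the E2F partner Tfdp1 (47.2 and 110 CPM, 1.22) were farthest on the higher side. Cyclin D2 (Ccnd2) was at 427 CPM (adherent) and 93.2 CPM (neurosphere) (-2.20), and the inhibitor Cdkn2b at 93.3 and 27.8 CPM (-1.74). Cdkn2a (-0.63), E2f5 (-0.44) and Cdk6 (-0.16) were also lower. The list thus held both activators and inhibitors on the higher side. Of 24 mitosis genes, 9 were higher and 15 lower, with a median of -0.13 and none past 2-fold in either direction, where 21.7% of all measured genes were at least 2-fold higher and 11.7% at least 2-fold lower.

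Library sums do not show how transcripts are shared among cells. Every kept cell was thinned to 5000 UMIs, which left 4464 adherent and 4196 neurosphere cells and set aside 587 and 80 shallower ones. Of the 40 genes, the median adherent cell held UMIs of 7 (quartiles 5 and 10) and the median neurosphere cell UMIs of 8 (quartiles 4 and 13). The neurosphere cells lay further out at both ends. Depth before thinning and mitochondrial share differed with this number, though not in 1 direction throughout. Neurosphere cells with 0 to 4 of the genes had a median of 9219 UMIs and a mitochondrial share of 4.54%, those with 10 to 14 had 17226.5 UMIs and 3.61%, and those with at least 15 had 15081 UMIs and 3.78%. In adherent cells the values were 7511 UMIs and 2.03%, 9144 UMIs and 1.94%, and 9078 UMIs and 1.95%. No replication gene was detected in 9 adherent cells, 0.202% (0.0922% to 0.382%), and in 44 neurosphere cells, 1.05% (0.763% to 1.41%). At least 15 genes were detected in 4.48% (3.89% to 5.13%) of adherent and 19.9% (18.7% to 21.1%) of neurosphere cells. At least 20 were detected in 0.202% and 5.31% of cells, and at least 25 in 0 of 4464 adherent cells, where the interval allows up to 0.0826%, and in 0.357% of neurosphere cells.

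At least 10 genes were detected in 30.2% (28.9% to 31.6%) of adherent and 43.1% (41.6% to 44.6%) of neurosphere cells. This limit cuts a continuous range, and 23.3% (adherent) and 15.5% (neurosphere) of cells held 9 to 11 genes. The order of the cultures at this limit depended on depth. At 8000 UMIs per cell, which 2692 adherent and 3517 neurosphere cells reached, the shares were 68.9% and 67.3%, while at 20 or more genes they were 4.35% and 21.9%. Without thinning, the shares at 10 or more genes were 60.9% and 68.0%.

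**Figure D4:**
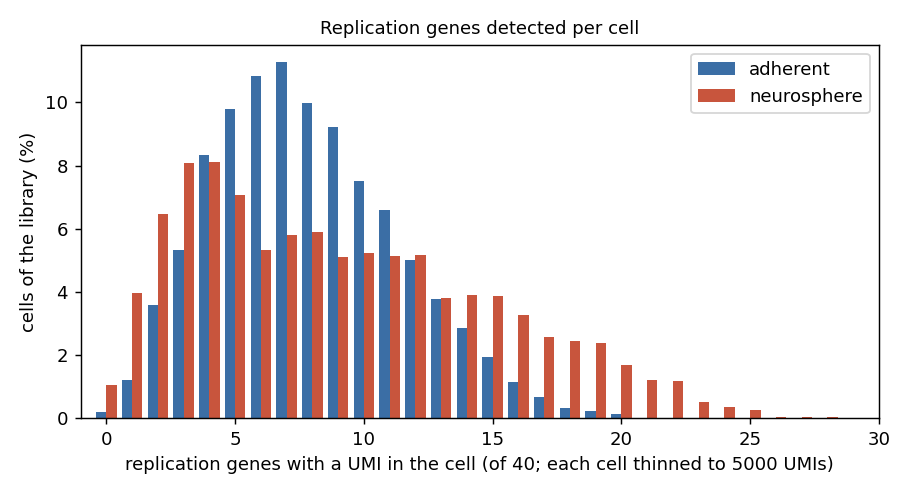
Number of the 40 replication genes with at least 1 UMI in a cell (horizontal axis, each cell thinned to 5000 UMIs) against the share of the library's cells (vertical axis, percent), for 4464 adherent and 4196 neurosphere cells. Adherent cells gather around a median of 7 genes, while neurosphere cells reach from 0 to 28 genes with more cells at both ends.

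Cells above the upper quartile of replication UMIs held 43.1% of these UMIs in adherent and 52.6% in neurosphere cells. For 35 of the 40 genes, the variance over the mean across thinned cells was higher in neurosphere cells, with medians of 1.08 in adherent and 1.21 in neurosphere cells. The same held for 62.6% of all measured genes, and for 68.6% of those with at least 1461 UMIs, the total of the least counted replication gene. In neurosphere cells Rrm2 had the highest value, 1.74, followed by Pcna with 1.65. In adherent cells Pcna was highest, at 1.26, and Rrm2 was at 1.23. Most genes were so sparse that the mean UMIs in positive cells lay near 1, its lowest possible value, with a median over genes of 1.13 in adherent and 1.23 in neurosphere cells, and no difference was read from values so near 1. The highest values in adherent cells were those of Pcna, at 1.67 (adherent) and 1.84 (neurosphere) UMIs, Rfc1 at 1.44 and 1.57, Pola1 at 1.43 and 1.54, and Tyms at 1.39 and 1.53.

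Across thinned cells, the Spearman correlation of a gene with the sum of the other 39 had a median of 0.153 over 4464 adherent and 0.321 over 4196 neurosphere cells. These are descriptions, since cells of a library share its depth and handling, and in sparse counts weak correlations carry little. Pcna had the highest value in both cultures, 0.252 in adherent and 0.511 in neurosphere cells, and Mcm3 and Rrm2 were among the next. Among single pairs, Pcna with Rrm2 was highest in both, at 0.122 and 0.329. Gins3 had the lowest value in both, at 0.006 in adherent and 0.015 in neurosphere cells.

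Cells of each library were next ranked by their UMIs of the 24 mitosis genes, which include none of the 40, and divided into 4 rank bins of equal size, from bin 1 with the fewest to bin 4 with the most mitosis UMIs. In adherent cells, the mean number of replication UMIs per cell was 8.0 in bin 1, then 11.7, 11 and 8.74. In neurosphere cells it was 4.94 in bin 1, then 12.8, 18.9 and 13.7. Both profiles thus had their highest value in a middle bin, and the neurosphere profile was steeper, with a ratio of highest to lowest of 3.83 against 1.47. Of the 40 genes, 26 peaked in bin 2 and 10 in bin 3 of adherent cells, and 38 peaked in bin 3 of neurosphere cells, or 24 with cells thinned to 8000 UMIs. The same bins held the peak of 18.8% and 18.6% (adherent bins 2 and 3) and 18.5% (neurosphere bin 3) of all measured genes, mitosis genes left out. The rank bins covered different ranges. Bin 1 held cells with 0 to 7 mitosis UMIs in the adherent library and 0 to 1 in the neurosphere library. Median depth before thinning went from 7401 UMIs in bin 1 to 10753 in bin 4 of adherent cells, and from 8797 to 18209 in neurosphere cells, where the median mitochondrial share went from 4.70% to 3.39%. Without thinning, bin 4, which holds the deepest cells, also had the most replication UMIs in both libraries.

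Single genes differed in how they followed mitosis transcripts. In neurosphere cells, Rrm2 averaged 0.016 UMIs in bin 1, then 0.306, 0.672 and 0.451, the steepest profile of the 40. In adherent cells the values for Rrm2 were 0.091, 0.297, 0.234 and 0.178. Cdc45 went from 0.019 to 0.306 UMIs between neurosphere bins 1 and 3, and Mcm10 from 0.010 to 0.153. In neurosphere cells, 39 of the 40 genes, all but Rfc5, were lower in bin 4 than in bin 3, as were 52.7% of all measured genes with a UMI in either bin. Cdc6 averaged 0.245 UMIs in bin 3 and 0.093 in bin 4, and Ccne2 0.197 and 0.067. Ung had its peak in a lower bin than any other of the 40 genes, in adherent bin 1 (0.128 UMIs, against 0.019 in bin 4) and in neurosphere bin 2 (0.233, against 0.038 in bin 4). In adherent cells with 0 or 1 mitosis UMI Ung averaged 0.072 UMIs, and in those with 2 to 7 it averaged 0.140. The bins rank cells by mitosis UMIs, and an order in time was not tested. Rfc5 lay at the other end, with its peak in bin 4 in both cultures, 0.265 and 0.370 UMIs. Gins3 was flat, with 0.094, 0.087, 0.096 and 0.091 UMIs across the neurosphere bins.

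**Figure D5:**
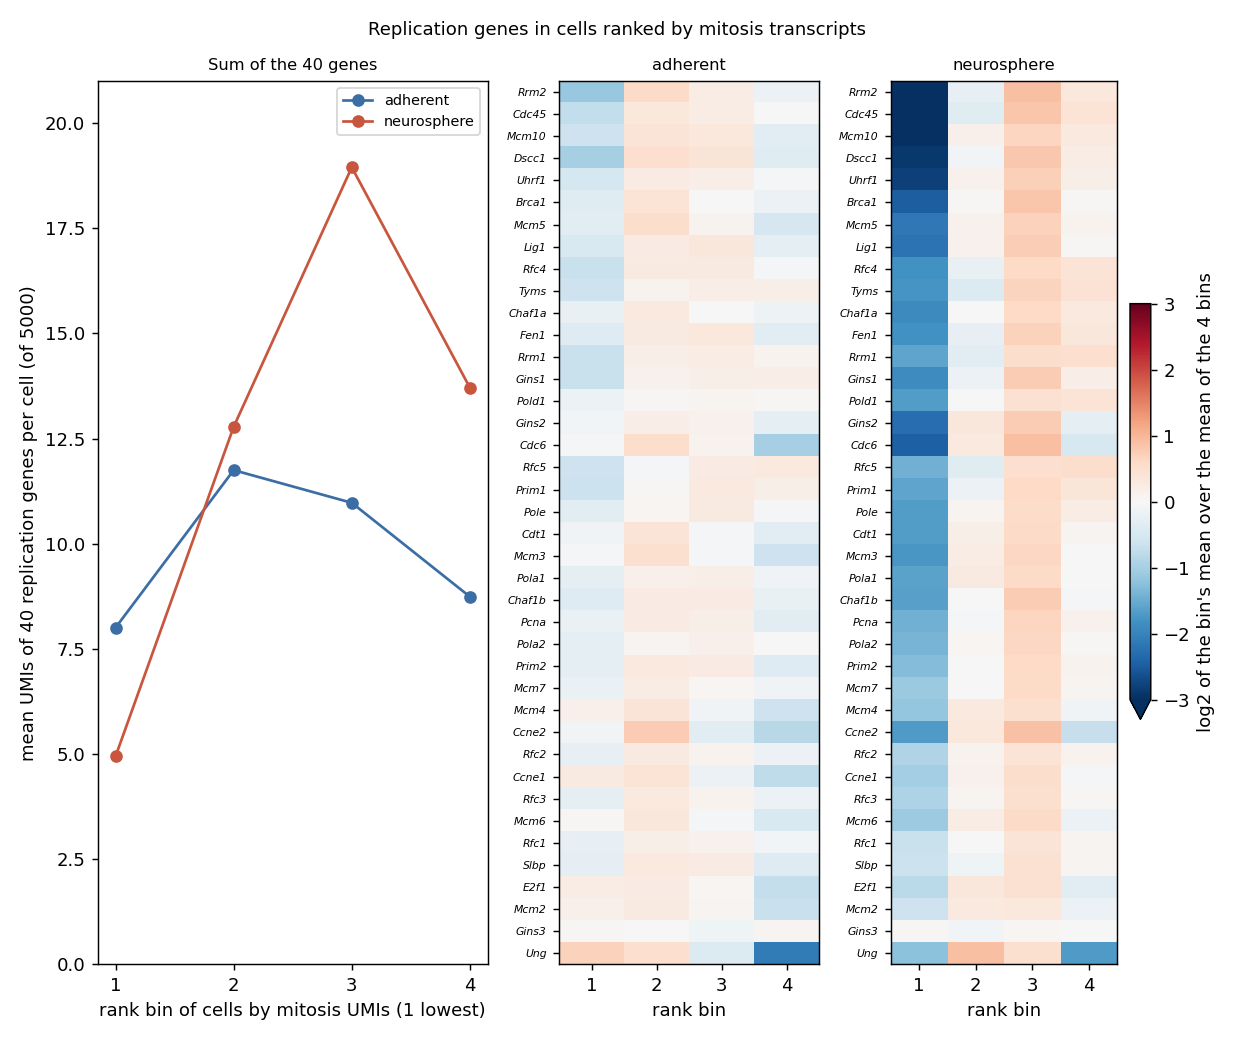
Replication transcripts in cells ranked by mitosis UMIs and divided into 4 rank bins (horizontal axes, 1 lowest). Left, mean UMIs of the 40 genes per cell thinned to 5000 UMIs, with the highest values of 11.7 in adherent bin 2 and 18.9 in neurosphere bin 3. Right, the log2 ratio of each gene's mean in a bin to its mean over the 4 bins, where the arrow of the colour scale marks values below it. In neurosphere bin 1 nearly all genes are blue, with Gins3 as the flat exception.

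Because the rank bins differed in range, the cells were also grouped by the same limits of mitosis UMIs in both cultures, a grouping chosen after the data were seen. Cells with 0 or 1 mitosis UMI were 236 adherent cells, 5.29%, and 1157 neurosphere cells, 27.6%. In these cells the mean replication UMIs were 6.00 in adherent and 5.06 in neurosphere cells, and 10 of the 40 genes were higher in neurosphere cells, where 61.7% of all measured genes were. In cells with 8 to 15 mitosis UMIs the means were 11.8 and 19.6, and 37 of 40 genes were higher in neurosphere cells, where 61.7% of all measured genes were. With 16 to 29 mitosis UMIs the means were 11 and 18.3 (36 of 40 genes, and 62.2% of all), and with at least 30 they were 8.72 and 13.0 (32 of 40 genes, and 61.4% of all). Cells with 2 to 7 mitosis UMIs lay between, at 8.78 and 12.8 (35 of 40 genes, and 63.1% of all). The direction of the set between cultures thus differed by group of cells, and library sums combine these groups in different proportions.

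In all 5 groups of cells, 10 genes were higher in neurosphere cells, namely Mcm2, Mcm10, Cdc6, Gins3, Dscc1, Prim2, Fen1, Slbp, Ccne2 and E2f1. The same held for 43.7% of all measured genes. In the group with 0 or 1 mitosis UMI, several of the 10 genes had very few UMIs. Mcm10 averaged 0.0042 and 0.013 UMIs (adherent and neurosphere), Cdc6 and Dscc1 both 0.021 and 0.026, and Ccne2 0.025 and 0.037. Slbp averaged 0.267 adherent and 0.695 neurosphere UMIs with 0 or 1 mitosis UMI, and 0.493 and 1.45 UMIs in those with 8 to 15. Mcm2 averaged 0.140 and 0.297 UMIs in the first of these groups, and 0.133 and 0.627 in the second. Gins1 was lower in neurosphere cells in all 5 groups, and all the remaining genes went both ways, Pcna and Tyms among them. Pcna averaged 0.631 UMIs in adherent and 0.366 in neurosphere cells with 0 or 1 mitosis UMI, but 1.13 and 1.59 UMIs with 8 to 15. Tyms likewise averaged 0.309 and 0.179 UMIs in the first group, and 0.659 and 0.859 in the second. For Pcna and Tyms, small differences between the library sums stood beside differences in opposite directions in cells with few and with more mitosis UMIs.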

How the data were processed

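Both libraries were made with the 10x Genomics 3′ protocol, and the submitters' processing notes name Cell Ranger 7.0.1 and mm10. The authors deposited the raw UMI counts per gene and called cell, 5764 adherent and 4951 neurosphere cells with 68531063 and 82832873 UMIs, without normalization. Whether reads in introns were counted is not given in the sources used here.

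The 13 mitochondrial and 101 ribosomal genes (symbols starting mt-, Rps or Rpl) were removed, followed by cells with under 1000 UMIs or under 1250 (adherent) or 2250 (neurosphere) genes. UMIs were summed over kept cells and scaled to CPM by the total UMIs of the retained genes. Log2 fold changes are ratios of these CPM values with exact conditional intervals, CPM has Poisson and shares have binomial (Clopper-Pearson) intervals. Per-cell values used cells thinned to 5000 UMIs without replacement. No doublet caller was used, and an alternative dropped the deepest 5% of cells per library. Measured genes had at least 50 UMIs over both libraries.

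The 40 genes, the lists, limits and settings were chosen with earlier results of these data known. All 40 may be named, and full values were given for the 5 largest and 5 smallest log2 fold changes and the 5 highest mean CPM, with the 5 largest and 5 smallest differences of the other replication and S phase control lists. Positions and lengths are those of GENCODE vM21 (GRCm38), which held 32235 of the identifiers, and promoters from RefSeq. Protein sequences were not analysed here. Alternatives covered the cell filter, step order, scaling (TMM from edgeR 4.0.16 under R 4.3.3, median of ratios), thinning depth and trends with length and GC content (statsmodels 0.14.6). Scripts were tested on simulated data and ran in Python 3.11.15 (scipy 1.17.1, numpy 2.4.6, matplotlib 3.10.9, pandas 2.3.3). The counts per cell group and the variance over the mean were also taken over all measured genes with a UMI in the cells compared, a step added after the data were seen.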

Additional observations from a re-analysis of the deposited data

How the results depend on the processing

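With 1 library per condition leaving out a library in turn was not possible, and the precision is that of counting alone. No paired analysis was possible because the labels carry no replicate numbers and each condition has 1 library. Cell filters, the order of steps and the mitochondrial limit left the median log2 fold change of the 40 genes and the number at least 2-fold higher close to the values reported.

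Scaling moved them. Relative to 0.61 for the 40 genes and 0.32 for all genes, the medians were 0.39 and 0.11 under TMM scaling, 0.36 and 0.08 under median of ratios scaling, and 0.83 and 0.54 with the total taken over all genes, mitochondrial and ribosomal ones included, so that all genes shifted by -0.22, -0.25 and 0.22. With the mean of per-cell CPM the median of the 40 genes was 0.47, and with cells thinned to 5000 UMIs it was 0.40. In the same order, the log2 fold change of the summed genes (0.47 as reported) was 0.25, 0.22, 0.68, 0.36 and 0.35. It was 0.51 with the length trend removed, and 0.45 both with the neurosphere gene minimum in both libraries and without cells over the 95th percentile of UMIs. The 8 genes at least 2-fold higher became 4 under TMM, 4 under median of ratios, 5 with the mean of per-cell CPM, 4 with thinned cells and 11 with mitochondrial and ribosomal genes in the total (Uhrf1, Ung and E2f1 in addition), and Mcm2, Fen1, Slbp and Ccne2 were among them each time. Over all genes, 21.7% were at least 2-fold higher and 11.7% lower as reported, against 16.1% and 14.5% under TMM, 15.4% and 15.1% under median of ratios, 21.6% and 12.0% with the mean of per-cell CPM, 22.6% and 10.6% with thinned cells, and 29.5% and 9.38% with all genes in the total. The 1.5-fold limit gave 21 genes. With at least 1 UMI in place of 50, 23649 genes in place of 14654 were measured, of which 28.6% were at least 2-fold higher and 19.1% lower.

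Thinning depth moved the values per cell. In adherent cells, the median number of genes detected was 5 at 3000 UMIs, 11 at 8000 UMIs and 11 without thinning, and the share of cells with at least 10 genes was 6.75%, 68.9% and 60.9%. The median over genes of the share of positive cells was 8.86%, 21.8% and 23.3%, and the median mean in positive cells was 1.21 UMIs at 8000 UMIs and 1.27 without thinning. In neurosphere cells, the corresponding numbers of genes were 5, 13 and 18, the shares of cells 22.0%, 67.3% and 68.0%, the median shares 13.3%, 32.7% and 43.2%, and the means in positive cells 1.14, 1.38 and 1.90 UMIs. At 8000 UMIs the ratio of the highest to the lowest neurosphere rank bin was 3.12, and 24 genes in place of 38 peaked in the bin with the highest sum. The median correlation of a gene with the others in neurosphere cells was 0.243 at 3000 and 0.372 at 8000 UMIs, alternatives chosen after seeing the data, as was the 10% mitochondrial limit for values per cell and the grouping of cells by the same mitosis UMIs.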
